A study of Mus musculus with 14 samples.

Results

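The Iroquois homeobox genes Irx1, Irx2, Irx3, Irx4, Irx5 and Irx6 were followed through 14 RNA-seq libraries of sorted mouse forelimb bud cells. The rule that picks the 6 genes names the family and uses no measured value, and they are 6 of the 24454 genes in the table of counts. 5 of them were among the 15125 genes with enough reads to be tested, and Irx4 was not. The cells came from embryos of a mixed Swiss Albino background that carry EGFP behind an IRES in the Sox9 locus, so that the prefix S9+ denotes reporter-positive and S9- reporter-negative cells. From these embryos, 5 populations were sorted by FACS. At E10.5 there were 3 libraries of S9-JAG1+ limb bud mesenchymal progenitors (LMPs), which carry the Notch ligand JAG1 on their surface. A further 3 libraries came from S9-Pαhi LMPs with high surface levels of the PDGF receptor PDGFRα, and 3 from S9+Pαhi osteo-chondrogenic progenitors (OCPs). For S9-SCA-1+ cells, which carry the surface antigen SCA-1, there were 2 libraries, with the replicate numbers 2 and 3. The remaining 3 libraries were of S9+PαhiCol2a1+ chondroblasts at E11.5, so population and stage cannot be told apart in any comparison with chondroblasts. All populations were depleted of dead cells and of cells with surface markers of blood, endothelium and epithelium, and each library was prepared from pooled forelimb buds of both sexes. The chondroblast label repeats the gate of the OCPs, and Col2a1 names the population without being part of the gate.

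Iroquois proteins are transcription factors with a homeodomain of the TALE class, which also holds the MEIS, PBX, PKNOX and TGIF proteins. In mammals the genes lie in 2 clusters that arose by duplication, and neighbouring members of a cluster often share enhancers and expression domains. In the early limb bud Irx3 and Irx5 act together in patterning of proximal and anterior skeletal elements, and their expression is restricted by Sonic hedgehog signalling from the posterior margin. Irx1 and Irx2 are known from digit condensations and forming joints, Irx4 from the ventricles of the heart, and Irx6 from neurons and the retina.

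On GRCm38 (mm10), Irx1 (chr13:71958232-71963723), Irx2 (chr13:72624430-72634196) and Irx4 (chr13:73259589-73269622) form the cluster on chromosome 13, with gaps of 661 and 625 kb. Irx3 (chr8:91798511-91801654), Irx5 (chr8:92357796-92361456) and Irx6 (chr8:92674289-92680956) form the cluster on chromosome 8, with gaps of 556 and 313 kb. The stretch of 90 coding bases of Irx3 with the highest mean identity to the closest stretch of each other member is shown, with those stretches. It tells how well reads can be assigned to a member. It codes for part of the homeodomain, including its recognition helix, and lies within 1 exon in each gene. Sequences are from GENCODE transcripts of GRCm38, 5′ to 3′ on the coding strand, and capitals mark bases that differ from Irx3.
Irx3 (chr8:91800502-91800591, minus strand): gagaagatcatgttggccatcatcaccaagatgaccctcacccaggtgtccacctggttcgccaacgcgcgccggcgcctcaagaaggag
Irx5 (chr8:92359720-92359809, plus strand): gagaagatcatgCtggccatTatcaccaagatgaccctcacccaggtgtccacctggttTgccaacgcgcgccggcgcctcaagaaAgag
Irx6 (chr8:92677329-92677418, plus strand): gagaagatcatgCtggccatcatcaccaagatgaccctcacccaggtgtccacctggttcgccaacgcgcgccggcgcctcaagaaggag
Irx1 (chr13:71959998-71960087, minus strand): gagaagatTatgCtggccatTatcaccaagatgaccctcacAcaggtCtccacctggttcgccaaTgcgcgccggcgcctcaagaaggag
Irx2 (chr13:72630757-72630846, plus strand): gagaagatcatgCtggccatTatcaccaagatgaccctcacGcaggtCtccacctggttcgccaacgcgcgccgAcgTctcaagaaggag
Irx4 (chr13:73267616-73267705, plus strand): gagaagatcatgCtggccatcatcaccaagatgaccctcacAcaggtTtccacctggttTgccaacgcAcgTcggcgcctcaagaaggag
Irx6 differed from Irx3 at 1 of the 90 bases and Irx5 at 4, whereas Irx1, Irx2 and Irx4 each differed at 6. Over all 15 pairs of members the identity was 91.1 to 98.9%. Windows of 50 bases were then counted over the whole transcripts, the stretch shown included. Of these, none of Irx1 or Irx4, 0.621% of Irx2 and 0.708% of Irx5 also occurred in the transcript of another gene. For Irx3 the share was 4.26% and for Irx6 3.58%, which included windows shared with antisense transcripts. Exons of Irx3os covered 4.49% of the Irx3 exon bases from the opposite strand, and exons of Gm45505 covered 4.51% of those of Irx6. Whether the counting used strand is not given in the sources used here, so reads from such overlaps cannot be told apart.

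The libraries held between 20316583 and 29162751 counts. A count of 3, the level up to which a gene was taken as not distinguishable from absence, corresponded to 0.101 to 0.149 CPM (counts scaled to a common library total). Among the sort markers, Sox9 was at 411 to 625 CPM in the 6 S9+ libraries and at 7.41 to 65.5 CPM in the others, and Jag1 was highest in the 3 S9-JAG1+ libraries with 228 to 364 CPM. Ly6a, which codes for SCA-1, did not exceed 0.406 CPM outside the S9-SCA-1+ libraries, which held 3.10 and 3.36 CPM. Pdgfra was at 360 to 530 CPM in S9-Pαhi LMPs, lower than the 667 to 746 CPM of OCPs and the 773 to 950 CPM of chondroblasts, at 246 to 248 CPM in S9-JAG1+ LMPs and at 24.0 and 44.8 CPM in S9-SCA-1+ cells. Limb myoblast markers summed to 1645 and 1648 CPM in the S9-SCA-1+ libraries and to 2.44 to 28.2 CPM in the other 12, and their red blood cell markers summed to 93.3 and 2735 CPM. Replicate 3 of the chondroblasts and replicate 3 of the S9-JAG1+ LMPs stood apart for the Irx genes, and each call that changed when either was left out is given with its value without that library. Labels call the libraries replicates without saying whether they came from separate litters, so p-values measure the spread between these pools. In such bulk libraries, fewer cells that express a gene and less RNA per cell cannot be told apart.

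Irx3 was the most abundant member in 13 of the 14 libraries by CPM per kb, and OCPs held most of it. Its level was 234, 236 and 203 CPM in OCPs, against 113, 98.5 and 96.6 CPM in S9-Pαhi LMPs. The means of these populations were 224 ± 18.4 and 103 ± 8.68 CPM (SD, n = 3). In S9-JAG1+ LMPs it was 37.0, 21.8 and 9.51 CPM, and in S9-SCA-1+ cells 17.4 and 15.7 CPM. Chondroblasts had the widest spread of Irx3, at 79.7, 50.4 and 5.58 CPM. The libraries of OCPs lay above all others and those of S9-Pαhi LMPs above all but the OCPs, whereas chondroblasts overlapped with S9-JAG1+ and S9-SCA-1+ cells because of a single library. In the order of the means, no neighbouring populations were called different for Irx3: the adjusted p was 0.22 for OCPs and S9-Pαhi LMPs, 0.116 for S9-Pαhi LMPs and chondroblasts, 0.17 for chondroblasts and S9-JAG1+ LMPs, and 0.692 for S9-JAG1+ and S9-SCA-1+ cells (edgeR quasi-likelihood test, Benjamini-Hochberg adjusted over all genes).

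Irx5 repeated this order at a lower level. OCPs held 76.2, 103.0 and 83.7 CPM and S9-Pαhi LMPs 41.3, 33.7 and 33.2 CPM. S9-JAG1+ LMPs held 10.7, 6.79 and 4.36 CPM, and S9-SCA-1+ cells 6.79 and 6.23 CPM. In chondroblasts Irx5 was at 33.7 and 22.3 CPM in replicates 1 and 2 and at 2.20 CPM in replicate 3, the library with least Irx3. The only neighbours in this order that were called different were chondroblasts and S9-JAG1+ LMPs, with an adjusted p of 0.048. Per kb of exon, Irx3 exceeded Irx5 in every library, by 2.22 to 3.52 times. The ratio stayed in this range although the level of Irx3 itself ranged from 5.58 to 236 CPM.

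**Figure D1:**
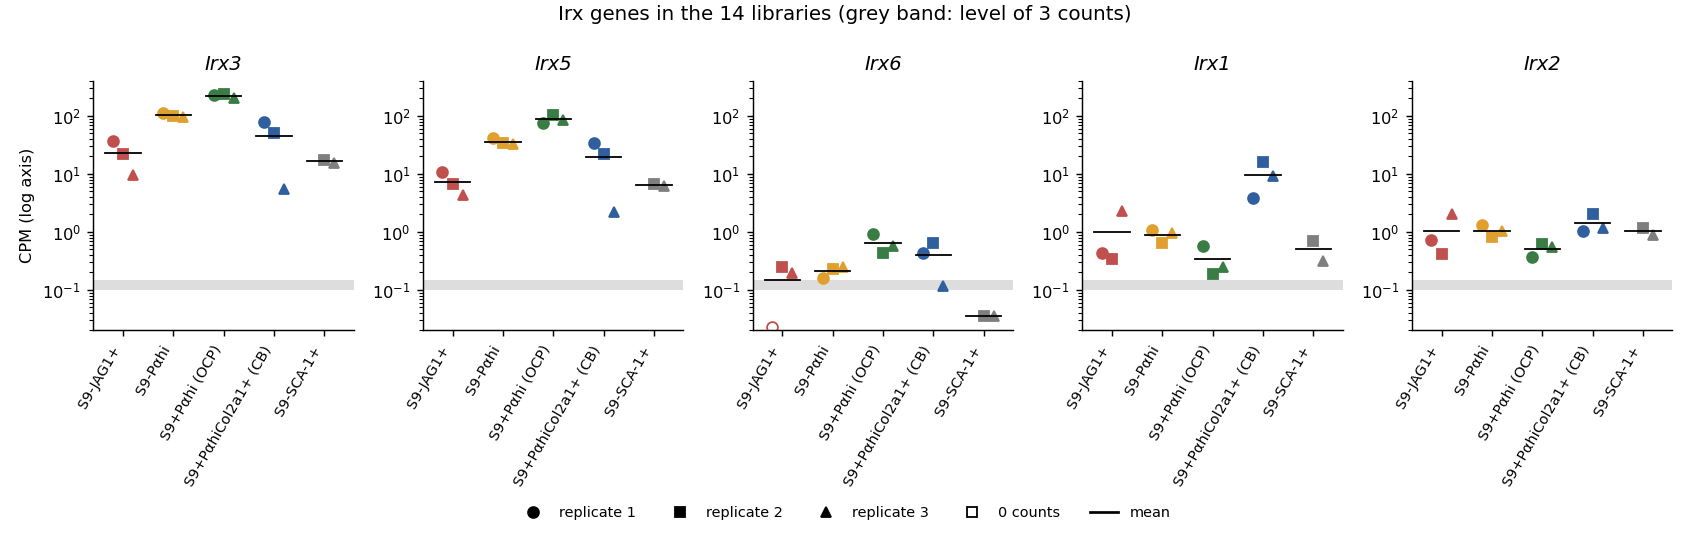
Levels of the 5 Irx genes that were tested, in CPM (log axis), for each of the 14 libraries, with the mean of each population as a line, an open symbol for 0 counts and a grey band for the level of 3 counts. Irx3 and Irx5 were highest in OCPs and low in chondroblast replicate 3, whereas Irx1 was highest in chondroblasts, and Irx6 stayed under 1 CPM.

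The third gene of this cluster, Irx6, was close to the limit of detection. It had 23, 9 and 16 counts in OCPs, or 0.933, 0.428 and 0.579 CPM, and 13, 19 and 3 counts in chondroblasts, or 0.437, 0.650 and 0.118 CPM. S9-Pαhi LMPs had 4, 6 and 5 counts and S9-JAG1+ LMPs 0, 6 and 5. Each S9-SCA-1+ library held 1 count, so that no level can be given there. OCPs thus lay above both LMP populations and above S9-SCA-1+ cells in every library, but overlapped with chondroblasts. The pooled counts gave an 18.5-fold higher level in OCPs than in S9-SCA-1+ cells, with a wide interval of 4.86 to 158 (exact binomial, counting error only). Irx6 shares windows of 50 bases with Irx3, which had 4953 to 5766 counts in the OCP libraries. Multi-hit reads were placed at 1 position, and the part of reads from Irx3 in the Irx6 counts was not tested.

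Irx1, from the other cluster, was highest in chondroblasts, with a mean of 9.64 ± 5.95 CPM (SD, n = 3). The single libraries held 3.90, 15.8 and 9.23 CPM, all above the other 11 libraries. S9-Pαhi LMPs held 1.10, 0.639 and 0.947 CPM and S9-SCA-1+ cells 0.6996 and 0.321 CPM. The lowest mean was that of OCPs, with 0.568, 0.190 and 0.253 CPM from 14, 4 and 7 counts. Among S9-JAG1+ LMPs, replicates 1 and 2 were at 0.428 and 0.335 CPM and replicate 3 at 2.26 CPM, the highest value outside the chondroblasts. Chondroblasts and S9-JAG1+ LMPs, the first neighbours in the order of Irx1, were called different with an adjusted p of 0.000463, and none of the lower neighbours were, with adjusted p of 0.556 to 0.876.

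Irx2 varied least between populations. It was at 1.04, 2.05 and 1.178 CPM in chondroblasts, at 1.30, 0.827 and 1.05 CPM in S9-Pαhi LMPs and at 1.154 and 0.890 CPM in S9-SCA-1+ cells. OCPs were lowest with 0.365, 0.618 and 0.543 CPM. S9-JAG1+ LMPs ranged over most of these levels, with 0.728 and 0.419 CPM in replicates 1 and 2 and 2.02 CPM in replicate 3. No neighbours in the order of Irx2 were called different. RefSeq places the long non-coding RNA Gm20554 across the start of the Irx2 gene, and it was at 0 to 0.210 CPM in all libraries. For Irx4, the sixth member, 11 of the 14 libraries had 0 counts and none had more than 2, and Nkx2-5, a factor of heart muscle, was never above 3 counts.

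By the summed level of the 6 genes per kb of exon, the cluster on chromosome 8 made up most of the Irx transcripts nearly everywhere. The cluster on chromosome 13 contributed 0.228 to 0.315% in OCPs and 1.11 to 1.60% in S9-Pαhi LMPs. Its share was 5.18 and 7.06% in S9-SCA-1+ cells. In S9-JAG1+ LMPs it was 2.34, 2.71 and 24.0%, and in chondroblasts 4.56, 21.5 and 59.8%. The highest share in either population belonged to replicate 3. In chondroblast replicate 3, Irx1 was the leading member with a level of 4.48 CPM per kb against 2.36 CPM per kb for Irx3, while in the 3 OCP libraries the cluster on chromosome 8 exceeded the other by 317 to 438 times.

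**Figure D2:**
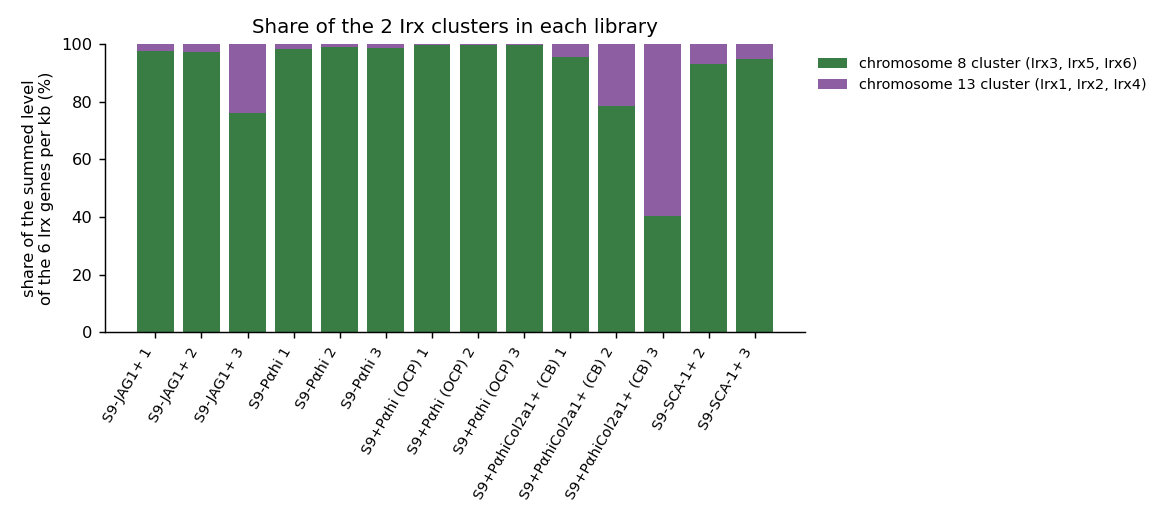
Share of the summed level of the 6 Irx genes per kb of exon (%) that came from the cluster on chromosome 8 (green) and the cluster on chromosome 13 (purple), for each of the 14 libraries. The purple share was under 1% in the 3 OCP libraries and 59.8% in chondroblast replicate 3.

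Each population was then compared with the mean of the other 4 to ask which of its genes set it apart. Calls needed a log2 fold change of 1.2 or more in size together with an adjusted p no higher than 0.1. OCPs had the largest number of called members. Irx3 rose by a log2 fold change of 2.62 ± 0.42 (SE, adjusted p = 0.000466), Irx5 by 2.70 ± 0.39 (adjusted p = 0.000198) and Irx6 by 2.09 ± 0.51 (adjusted p = 0.00946). These 3 of 5 members compare with 3.37% of all tested genes called higher in OCPs. For Irx6, the part of reads shared with Irx3 was not tested. Irx1 fell by 2.08 ± 0.68 (adjusted p = 0.0414), beside 1.64% of all genes called lower, but this call was lost without OCP replicate 2 (-1.83, adjusted p = 0.131) or replicate 3 (-1.90, adjusted p = 0.148). Irx2 had a log2 fold change of -1.153 and stayed under the fold limit.

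In chondroblasts Irx1 rose by 3.92 ± 0.42 (adjusted p = 3.16e-06), the largest change of any member in any population, and remained at 3.91 without replicate 3. Irx6 passed the limits with 1.26 ± 0.54 (adjusted p = 0.0579). Across all genes 11% were called higher in chondroblasts. The call of Irx6 was lost when either of chondroblast replicates 1 (1.183, adjusted p = 0.143) and 2 (0.72, adjusted p = 0.375) was left out, and also without OCP replicate 2 (1.17), S9-JAG1+ replicate 1 (1.12) or S9-SCA-1+ replicate 2 (adjusted p = 0.103) or 3 (adjusted p = 0.101). Irx3 and Irx5 were not called in chondroblasts, at -0.26 ± 0.48 and -0.01 ± 0.45. Without chondroblast replicate 3 these values turned to 0.23 ± 0.29 and 0.48 ± 0.21, both still under the fold limit.

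S9-JAG1+ LMPs had lower levels of Irx3, by -1.504 ± 0.53 (adjusted p = 0.0337), and of Irx5, by -1.79 ± 0.51 (adjusted p = 0.0119), beside 7.7% of all genes called lower. Without replicate 3, Irx5 was still called at -1.52 (adjusted p = 0.0676), and Irx1, which was not called with all libraries (-0.12), had -1.52 (adjusted p = 0.0773) and was called. The call of Irx3 did not hold without replicate 3 (-1.13, adjusted p = 0.151) or replicate 2 (-1.46, adjusted p = 0.102). In S9-Pαhi LMPs, Irx3 was the only called member, at 1.21 ± 0.44 with an adjusted p of 0.0995, beside 1.53% of all genes called higher. This value sits at both limits, and 10 of the 14 fits that left out a library lost it, with log2 fold changes of 1.11 to 1.26. Without S9-JAG1+ replicate 3, Irx3 missed both limits (1.145, adjusted p = 0.111). Without chondroblast replicate 3, it missed only the fold limit (1.11, adjusted p = 0.00906). Irx5 had 1.10 ± 0.42 and missed both limits (adjusted p = 0.116). Without chondroblast replicate 3, Irx5 had 0.99 (adjusted p = 0.00283) and missed only the fold limit.

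S9-SCA-1+ cells had lower Irx3, by -2.07 ± 0.66 (adjusted p = 0.0226), lower Irx5, by -1.99 ± 0.62 (adjusted p = 0.0201), and lower Irx6 (adjusted p = 0.0274), for which a fold change would rest on 2 counts. Of all genes, 6.8% were called lower. None of these 3 calls remained when either S9-SCA-1+ library was left out, which leaves 1 library for this population. In every fit the populations share the estimate of the spread of a gene, so the p-values with both libraries also rest on it. The adjusted p without replicates 2 and 3 was 0.127 and 0.159 for Irx3, 0.12 and 0.146 for Irx5, and 0.156 and 0.161 for Irx6. Both libraries also held 1645 CPM or more of limb myoblast markers, and all 7 red blood cell markers were called higher in this population, beside 4.46% of all genes. The part of those cells in the lower Irx levels was not tested. Over all 14 libraries, leukocyte markers summed to at most 0.712 CPM, heart muscle markers to 2.98 CPM, endothelial markers to 15.5 CPM, ectodermal markers to 27.8 CPM with Wnt7a never above 3 counts, neural crest and glial markers to 79.2 CPM and neural markers to 159 CPM.

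**Figure D3:**
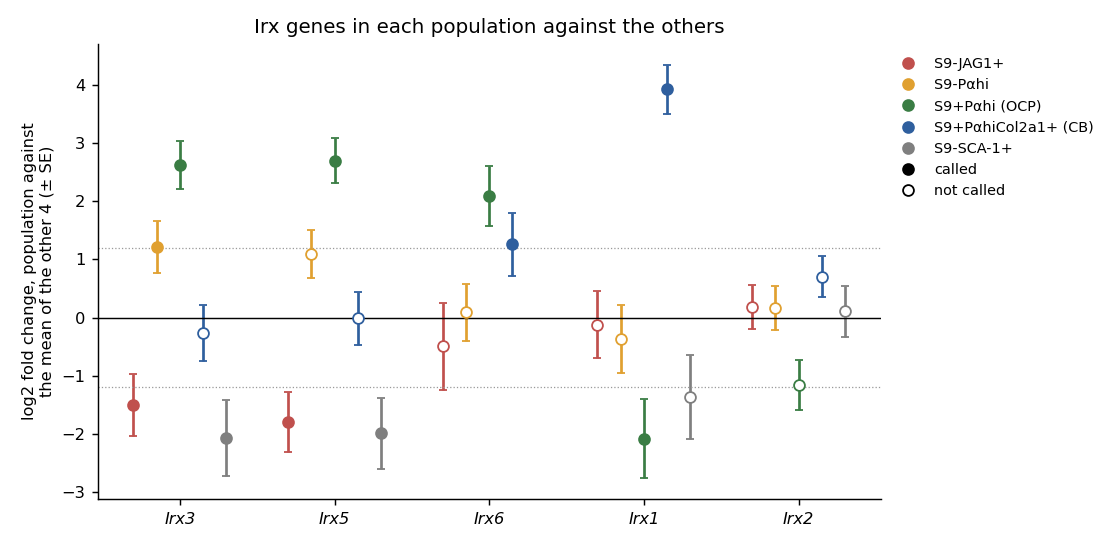
Log2 fold change (± SE) of 5 Irx genes in each population against the mean of the other 4, with filled symbols for called genes and dotted lines at the fold limit of 1.2. Irx6 in S9-SCA-1+ cells is left out because it rests on 2 counts. OCPs had the highest values for Irx3, Irx5 and Irx6 and the lowest for Irx1, and chondroblasts the highest for Irx1.

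Pairs of populations gave 21 calls in 50 tests of 5 members over 10 pairs. For each pair the share of all tested genes called in the same direction is given, or in either direction where no member was called. These shares ranged from 1.16 to 15.2%. OCPs against chondroblasts, the 2 S9+ populations, differed in both clusters at once. In chondroblasts Irx1 was higher by 4.80 ± 0.71 (adjusted p = 0.000277) and Irx2 by 1.49 ± 0.50 (adjusted p = 0.0407), beside 6.6% of all genes called higher. Irx3 was lower by -2.31 ± 0.61 (adjusted p = 0.0132) and Irx5 by -2.17 ± 0.55 (adjusted p = 0.011), beside 1.16% called lower. With chondroblast replicate 3 left out, the differences of Irx3 and Irx5 were -1.81 ± 0.37 (adjusted p = 0.00512) and -1.66 ± 0.27 (adjusted p = 0.00105) and still called. The call of Irx2 was lost without chondroblast replicate 2 (1.11, adjusted p = 0.181) or OCP replicate 1 (1.30, adjusted p = 0.119).

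Within E10.5, OCPs exceeded S9-JAG1+ LMPs in Irx3 by 3.30 ± 0.64, in Irx5 by 3.59 ± 0.60 and in Irx6 by 2.07 ± 0.68 (adjusted p of 0.000975, 0.000314 and 0.0261), beside 9.03% of genes called higher. Without S9-JAG1+ replicate 3 these were 2.92, 3.31 and 2.31 and still called. S9-Pαhi LMPs exceeded S9-JAG1+ LMPs in Irx3 by 2.17 ± 0.62 and in Irx5 by 2.31 ± 0.59 (adjusted p of 0.0215 and 0.0117), beside 4.42% called higher, and by 1.82 and 2.06 without S9-JAG1+ replicate 3, both still called. The 2 LMP populations therefore differed in these genes although both lack the Sox9 reporter. OCPs and S9-Pαhi LMPs gave no called member with all libraries in the fit, while 4.84% of all genes were called in either direction. Irx3 differed by 1.13 (95% interval -0.02 to 2.28) and Irx5 by 1.28 (0.23 to 2.33), all OCP libraries lay above all S9-Pαhi libraries for both, and Irx5 and Irx6 had an unadjusted p under 0.05, whereas DESeq2 called none. Chondroblast replicate 3 enters this pair only through the shared estimate of the spread. When it was left out, Irx5 (1.26 ± 0.23, adjusted p = 0.00339) and Irx6 (1.58 ± 0.58, adjusted p = 0.0948) were called. Irx3 then had 1.10 ± 0.32 (adjusted p = 0.0396) and was not called because it stayed under the fold limit. S9-SCA-1+ and S9-JAG1+ cells also gave no call by edgeR or DESeq2 and no unadjusted p under 0.05, beside 11.4% of all genes called. Their difference in Irx3 was -0.45, with an interval of -1.81 to 0.90.

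The remaining pairs involved S9-SCA-1+ cells or chondroblasts. Against OCPs, S9-SCA-1+ cells were lower in Irx3 by -3.76 ± 0.78 and in Irx5 by -3.75 ± 0.72 (adjusted p of 0.00176 and 0.001), and Irx6 was also called, beside 8.03% of genes called lower. Against S9-Pαhi LMPs the differences were -2.63 ± 0.74 and -2.47 ± 0.69 (adjusted p of 0.0174 and 0.0166), beside 5.58%, and both calls were lost without S9-SCA-1+ replicate 2 (adjusted p of 0.103 and 0.1003) or 3 (0.131 and 0.125). Chondroblasts exceeded S9-JAG1+ LMPs in Irx1 by 3.23 ± 0.62 and in Irx5 by 1.43 ± 0.58 (adjusted p of 0.000463 and 0.048), beside 15.2% called higher. The difference in Irx1 was 4.61 without S9-JAG1+ replicate 3, the library with most Irx1 in that population. The Irx5 call was lost without chondroblast replicate 1 (0.74, adjusted p = 0.297) or 2 (1.29, 0.115), or without S9-JAG1+ replicate 2 (1.34, 0.116) or 3 (1.12, 0.162). In the same pair Irx3 and Irx6 became called without chondroblast replicate 3 (1.48 and 1.77, adjusted p of 0.00329 and 0.0356), and Irx2 without S9-JAG1+ replicate 3 (1.28, adjusted p = 0.0192). Irx1 was called between chondroblasts and S9-Pαhi LMPs, at 3.43 ± 0.63 (adjusted p = 0.000593), beside 10.8%, and there Irx3 became called, lower in chondroblasts, without S9-JAG1+ replicate 3 (-1.22, adjusted p = 0.0852). S9-SCA-1+ cells were lower than chondroblasts in Irx1 by -4.22 ± 0.78 (adjusted p = 0.000429), in Irx3 (adjusted p = 0.0934), in Irx5 (adjusted p = 0.0575) and in Irx6 (adjusted p = 0.0124), beside 13.9%. In that pair Irx3 lost its call in 9 of the 14 fits that left out a library, with log2 fold changes between -1.52 and -0.74, and Irx5 lost it without chondroblast replicate 1 (-0.90) or 2 (-1.45) or S9-SCA-1+ replicate 2 (-1.64) or 3 (-1.52).

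Taken over all populations together, the spread between libraries of 1 population was wide for these genes. The biological coefficient of variation was 13.4% over all genes, and it was 52.5% for Irx1, 50.4% for Irx3, 48.3% for Irx5, 39.5% for Irx6 and 36.7% for Irx2, so that between 95.2 and 98.7% of tested genes varied less. The spread was not even across populations. Among OCPs the libraries differed in Irx3 by 1.16-fold and among S9-Pαhi LMPs also by 1.16-fold, less than the median gene in either population. Among chondroblasts they differed 14.1-fold in Irx3 and 14.9-fold in Irx5, and 15 and 13 genes spanned a wider range.

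This spread came from chondroblast replicate 3. Relative to the mean of replicates 1 and 2 on the log2 scale, Irx5 was lower by -3.59, or 12.1-fold, and Irx3 by -3.49, or 11.2-fold, and only 9 and 11 of the 15125 genes were lower still. Irx6 was lower by -1.64. Irx2 (-0.30) and Irx1 (0.23) of the other cluster were close to the other replicates. In the whole library 2.98% of genes differed by at least 1 log2 unit, 376 downward and 74 upward. The library was not poor in cartilage transcripts, with Sox9 at 625 CPM, Col2a1 at 1886 CPM, the highest of all libraries, and a median of 0.45 over 14 cartilage genes.

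Some genes listed for the anterior and proximal limb bud moved with Irx3 and Irx5 in this library. Of 10 genes listed for the anterior and proximal limb bud, 5 were at least 1 log2 unit lower in chondroblast replicate 3 (Pax1 by -5.004, Meis2 by -2.66, Meis1 by -1.95, Alx1 by -1.95 and Emx2 by -1.53). Of 10 genes listed for the posterior and distal limb bud, including Hoxd13, Hoxa13 and Hand2, none was, and their median difference was 0.34. Meis1 and Meis2, whose proteins mark the proximal limb, were at 55.2, 41.0 and 12.3 CPM and at 115, 86.6 and 15.8 CPM in the 3 chondroblast libraries. Among the 12 genes with the lowest difference in this library, a choice made on these values, were Hoxb4, Hoxb5, Hoxb6 and Hoxb8 and Gdnf beside Pax1, Irx3 and Irx5. Hoxb8 was at 4.84 and 3.22 CPM in replicates 1 and 2 and had 0 counts in replicate 3. The part of cell composition or dissection in these differences was not tested.

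**Figure D4:**
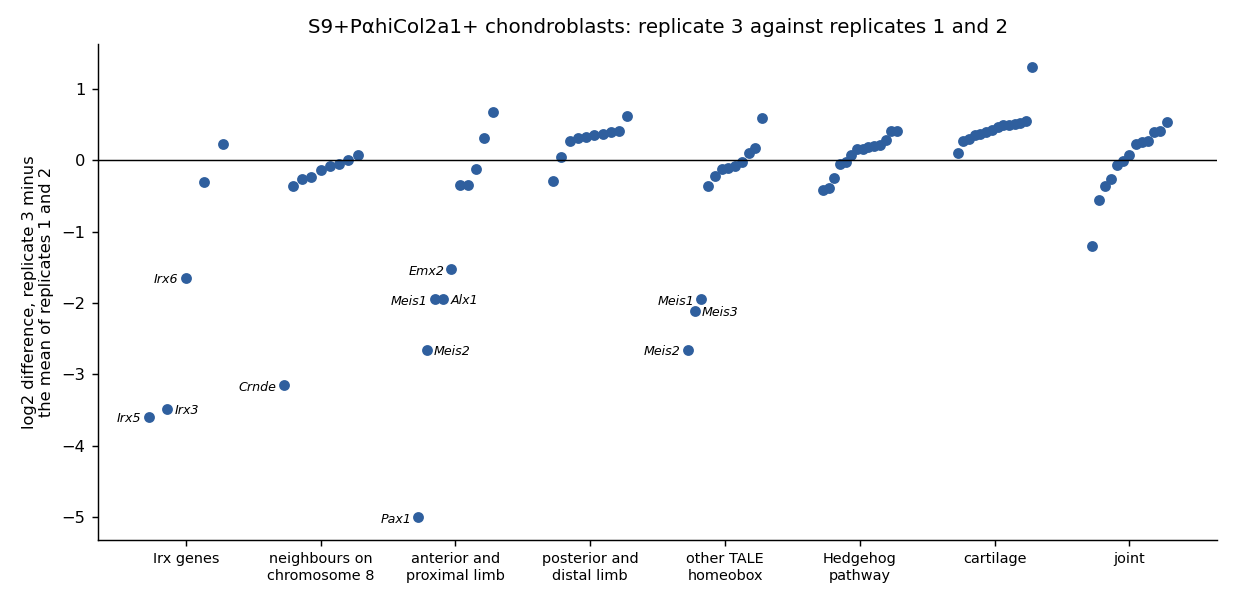
Log2 difference between chondroblast replicate 3 and the mean of replicates 1 and 2 for single genes (points), grouped by gene list. Irx3, Irx5 and Crnde lay between -3.15 and -3.59, and the other tested neighbours on chromosome 8 lay near 0. Meis1 and Meis2 appear in 2 lists.

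S9-JAG1+ replicate 3 also stood apart, in both directions. Relative to replicates 1 and 2, Irx1 was higher by 2.35 and Irx2 by 1.73, with 99.9 and 99.7% of genes below them, whereas Irx3 was lower by -1.57 and Irx5 by -0.96. Irx6, with 0, 6 and 5 counts, cannot be compared. In the whole library 3.25% of genes differed by at least 1 log2 unit. Among the 12 with the highest difference, chosen on these values, were Dll1, Dll3 and Hoxb1 (8.05, 9.44 and 2.10 CPM, against at most 1.28 CPM in the other 2 libraries). Markers of other cells went both ways. Of 6 endothelial genes, 2 were at least 1 log2 unit higher, Cdh5 by 2.07 and Kdr by 1.75, and the list had a median of 0.64. Of 8 limb myoblast genes, 1 was that much higher (Pax3, by 2.33) and 1 that much lower. Of 8 tested ectodermal genes, 1 was that much higher (Fgf8, by 2.21), and the median was -0.08. Globin transcripts were lower, with a median of -1.39 over 7 red blood cell markers. Meis1 and Meis2 were lower by -1.02 and -1.11, and the posterior and distal list had a median of 0.26. Whether these differences bear on the Irx genes was not tested.

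The genes whose levels followed Irx3 most closely across all 14 libraries were ranked by the root mean square difference of their log2 levels after centring. Among 11885 other genes Irx5 was the nearest to Irx3, with a distance of 0.197, and next came Rarb (0.507), the retinoic acid receptor β, and Hoxb6 (0.526), where the median distance was 1.71. For Irx5 the nearest genes were Irx3, Rarb (0.483) and the long non-coding RNA Crnde (0.512). Rarb was at 35.9, 44.7 and 40.0 CPM in OCPs and at 31.7, 30.6 and 28.4 CPM in S9-Pαhi LMPs, and at 3.93 CPM in chondroblast replicate 3, against 20.8 and 15.9 CPM in the other 2. Hoxb6 had 10.4, 16.8 and 11.0 CPM in OCPs and 0.236 CPM in chondroblast replicate 3. These distances describe 14 libraries of 5 populations and carry no test, since libraries of a population are not independent points.

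**Figure D5:**
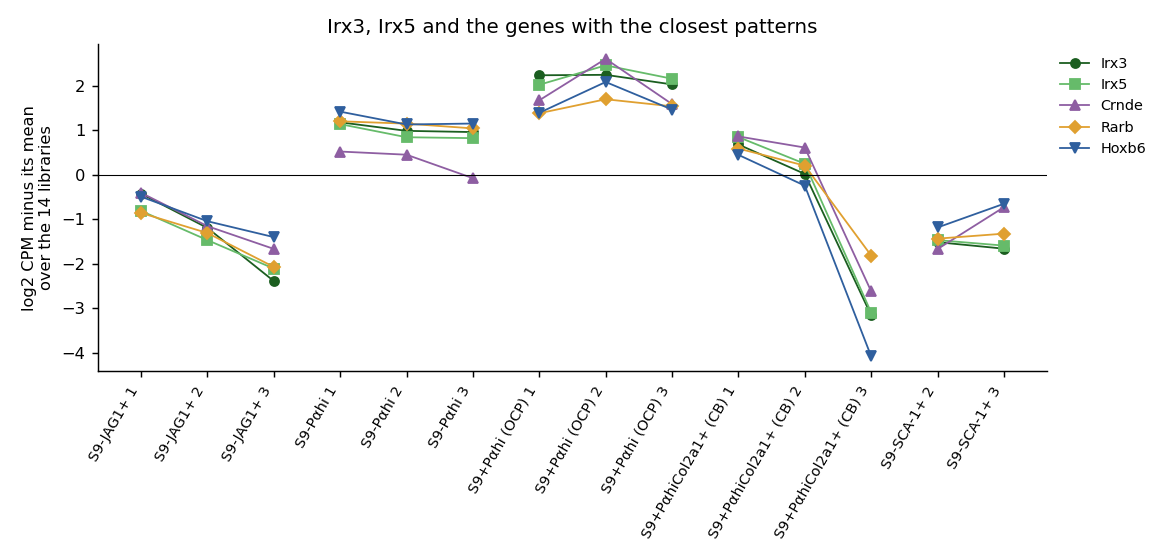
Log2 CPM of Irx3, Irx5 and the genes with the closest patterns (Crnde, Rarb and Hoxb6), each minus its own mean over the 14 libraries, with lines joining libraries of 1 population. The 5 genes were high in OCPs and S9-Pαhi LMPs and low in chondroblast replicate 3, with Crnde lower than the others in S9-Pαhi LMPs.

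Crnde begins 1676 bases from Irx5 on the opposite strand. It was the called neighbour of the chromosome 8 cluster in OCPs, where it rose by 2.41 ± 0.39 (adjusted p = 0.000555), with 9.21, 17.6 and 8.68 CPM. It fell by 1.35 in S9-JAG1+ LMPs (adjusted p = 0.0492) and by 1.52 in S9-SCA-1+ cells (adjusted p = 0.0632), the same populations in which Irx5 was lower. In chondroblasts it held 5.25 and 4.41 CPM and, in replicate 3, 0.471 CPM, a difference of -3.15. Unlike Irx3 and Irx5 it was called higher in OCPs than in S9-Pαhi LMPs, by 1.70 ± 0.54 (adjusted p = 0.0556) beside 3.48% of all genes, although the difference between these genes was not tested. Since Crnde starts so close to Irx5, its upstream sequence (RefSeq, GRCm38.p6) is shown beside that of Irx3, the 2 upstream stretches of co-varying genes that were at hand. Each is the 250 bases before the start, 5′ to 3′ on the strand of the gene, and capitals mark CG dinucleotides.
Irx3 (chr8:91801655-91801904, minus strand): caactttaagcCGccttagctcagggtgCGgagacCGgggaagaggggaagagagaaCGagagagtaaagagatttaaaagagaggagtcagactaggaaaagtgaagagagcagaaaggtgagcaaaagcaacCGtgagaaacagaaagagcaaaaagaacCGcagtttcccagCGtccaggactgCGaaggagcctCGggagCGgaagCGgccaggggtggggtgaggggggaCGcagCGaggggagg
Crnde (chr8:92356121-92356370, minus strand): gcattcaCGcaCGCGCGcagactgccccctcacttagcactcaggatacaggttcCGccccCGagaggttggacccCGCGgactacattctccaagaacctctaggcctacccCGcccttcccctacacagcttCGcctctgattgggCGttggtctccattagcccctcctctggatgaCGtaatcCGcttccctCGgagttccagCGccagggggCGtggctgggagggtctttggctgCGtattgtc
The Irx3 stretch held 13 CG dinucleotides and that of Crnde 17, where the median of 32817 mouse promoter stretches of this length was 6. Both lacked the GLI motif GACCACCCA (present in 0.225% of promoters), the Iroquois motif ACANNTGT (6.32%) and TATAAA (12.4%), each searched on both strands. This says only that these letters are not in these windows. Of the 6 members, 3 had an entry in the promoter table (Irx2, Irx3 and Irx4), and the stretches of Irx2 and Irx4 held 19 and 22 CG dinucleotides.

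The other neighbours were read from the same comparisons. Within 1 Mb of the chromosome 8 cluster, 9 genes were tested, and apart from Crnde only Capns2 was called in the comparisons with the other 4 populations, higher in S9-JAG1+ LMPs at 1.44 ± 0.39 (adjusted p = 0.00823). Fto, whose introns hold enhancers that act on Irx3, had 97.5 to 146 CPM in all libraries and a difference of -0.00056 in chondroblast replicate 3. Around the chromosome 13 cluster, 14 genes were tested. The long non-coding RNA Eprn, 75043 bases from Irx4, was called higher in OCPs (2.58 ± 0.38, adjusted p = 0.000273) and in chondroblasts (2.34 ± 0.38, adjusted p = 0.000141) and lower in S9-JAG1+ LMPs (adjusted p = 0.00318), where the 3 libraries had 0, 2 and 0 counts, too few to give a fold change. Its level was 0.720 ± 0.195 CPM in OCPs and 0.637 ± 0.0614 CPM in chondroblasts (SD, n = 3), a difference of -0.19 that was not called (adjusted p = 0.769), whereas Irx1 was called between these populations. Ahrr, a repressor of the aryl hydrocarbon receptor, was higher in chondroblasts by 1.31 ± 0.22 (adjusted p = 0.000167), and Nkd2, an inhibitor of Wnt signalling, was called higher in S9-SCA-1+ cells (1.202 ± 0.12).

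As background for Irx3 and Irx5, 14 genes of the hedgehog pathway were read from the same comparisons. The ligand Shh was at 54.2, 62.4 and 74.3 CPM in S9-JAG1+ LMPs and was called there at 5.84 ± 0.15 (adjusted p = 4.39e-12). It was also called higher in S9-Pαhi LMPs (3.36 ± 0.16, adjusted p = 1.96e-08), with 19.0, 13.7 and 15.5 CPM. The part of the pathway in the Irx levels was not tested. In OCPs and chondroblasts Shh was at 0.303 CPM or less, and it was called lower in both, beside 1.71% of all genes called lower in chondroblasts. Ptch1, the receptor of SHH and itself a target of the pathway, was at 204, 209 and 245 CPM in S9-JAG1+ LMPs, at 82.0 to 104 CPM in S9-Pαhi LMPs and OCPs and at 61.4 and 64.4 CPM in S9-SCA-1+ cells. In chondroblasts Ptch1 was at 119 to 154 CPM, and no gene of the list was at least 1 log2 unit different in chondroblast replicate 3. In S9-JAG1+ LMPs, 3 of the 14 genes were called higher, among them Shh and Ptch1, and 3 lower, namely the co-receptors Cdon and Boc and the antagonist Hhip, beside 2.88 and 7.7% of all genes. OCPs had Hhip (1.77 ± 0.18) and Cdon (1.28 ± 0.12) called higher and Shh lower. Between chondroblasts and OCPs the median log2 fold change of the 14 genes was -0.17.

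The 12 other TALE homeobox genes showed the order of Irx3 and Irx5 in part. In OCPs 3 of 12 were called higher, among them Meis1 (2.07 ± 0.30, adjusted p = 0.000199) and Meis2 (1.73 ± 0.35, adjusted p = 0.00272), and Pknox2 was called lower, beside 3.37% and 1.64% of all genes. In S9-JAG1+ LMPs 4 were called lower, among them Meis1 (-2.12 ± 0.39), Meis2 (-2.05 ± 0.45) and Pbx3 (-1.77 ± 0.11), beside 7.7%. Meis2 was called higher in S9-Pαhi LMPs (1.32 ± 0.36, adjusted p = 0.0276). Between chondroblasts and OCPs, Meis3, Meis1 and Meis2 were lower by -2.15 ± 0.43, -1.88 ± 0.42 and -1.66 ± 0.49, as Irx3 and Irx5 were, and Pknox2 was higher by 3.32 ± 0.19. The median of the 12 genes was 0.59 in OCPs and -0.51 in S9-JAG1+ LMPs, where that of all genes was 0.02 and -0.01.

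Positional genes divided the populations further. The anterior and proximal list was called higher for 8 of 10 genes in S9-Pαhi LMPs, with Pax1 (3.42 ± 0.53) and Alx4 (2.27 ± 0.17) in front, beside 1.53% of all genes, and for 4 of 10 in OCPs, beside 3.37%, with Emx2 (3.68 ± 0.24) and Tbx18 (2.15 ± 0.15) in front. In OCPs 2 genes of the same list were called lower, among them Pax9, beside 1.64%. In S9-JAG1+ LMPs 5 of 10 were called lower and 1 higher, beside 7.7 and 2.88%, and in S9-SCA-1+ cells 8 of 10 lower, beside 6.8%. The posterior and distal list was called higher for 9 of 10 genes in S9-JAG1+ LMPs, with Hoxa13 at 4.84 ± 0.12, and lower for 7 of 10 in OCPs and 9 of 10 in S9-SCA-1+ cells, against the same shares of 2.88, 1.64 and 6.8%. The 2 lists share no gene, but Meis1 and Meis2 are also counted among the TALE genes and Shh among the hedgehog genes. Jag1, whose protein defined the sort of S9-JAG1+ LMPs, is counted in the posterior and distal list. Its call in S9-JAG1+ LMPs follows from that gate, and it is also among the genes called lower in OCPs and in S9-SCA-1+ cells.

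For Irx1, which is known from forming joints, 13 joint genes and 14 cartilage genes were read in chondroblasts. Of the joint genes 11 were called higher, where 11% of all genes were, led by Gdf5, a growth factor of the joint interzone (4.51 ± 0.15, adjusted p = 3.08e-10), Wnt4 (3.95 ± 0.36), Erg (2.61 ± 0.14) and Wnt9a (2.13 ± 0.16). Of the cartilage genes 13 were called higher, led by Matn4 (9.00 ± 0.40), Matn1 (6.61 ± 0.48), Col9a2 (5.66 ± 0.21) and Col9a3 (5.57 ± 0.22). Gdf5 was at 26.4 to 42.2 CPM in chondroblasts and at 3.28 to 4.27 CPM in OCPs, where Irx1 was lowest. Directly between chondroblasts and OCPs, 8 of 13 joint genes and 8 of 14 cartilage genes were called higher, beside 6.6% of all genes. OCPs already had 7 of the 14 cartilage genes called higher against the other populations, beside 3.37% of all genes. Among them were Sox9 (2.87 ± 0.13) and Col2a1 (2.67 ± 0.16), but Irx1 was not raised there. Sox9 is also among the 13 cartilage genes called in chondroblasts. Both populations were sorted by the Sox9 reporter, so the Sox9 calls follow from the gate.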

How the data were processed

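RNA-seq was measured in 14 libraries of 5 sorted populations. Per the methods of the study and the submitters' processing notes, poly(A)+ libraries were sequenced as single reads, aligned to mm10 with STAR, with multi-hit reads placed at 1 position, and counted over RefSeq exons with QuasR. The values used are the counts per gene that the authors deposited, with no normalization. Entrez ids were matched to mouse symbols for 24374 of 24454 rows, and the 80 unmatched rows held 0.358% of all counts.

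Genes with low counts were removed with filterByExpr of edgeR 4.0.16 (R 4.3.3), which left 15125. Libraries were scaled by TMM, and 1 quasi-likelihood fit over all 14 libraries gave each population against the mean of the other 4 and the 10 pairs. These comparisons share libraries. Calls needed a Benjamini-Hochberg adjusted p of at most 0.1 and a log2 fold change of at least 1.2. Levels are CPM on the scaled totals, per kb by the exon length in the table, and log2 levels used a prior count of 2. A count of 3 was taken as the floor, and floors and intervals cover counting error only. Library totals of 20316583 to 29162751 counts set the precision of low genes such as Irx6. DESeq2 1.42.0, other filters and scalings, a replicate block and leaving out each library were tried as alternatives.

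The text names the 6 Irx genes, the 3 genes with the closest pattern for each Irx gene with an average of at least 1 log2 CPM, called genes within 1 Mb, at most 4 called genes per list and comparison, and the sort markers. Others are named as chosen on their values or as parts of a list. The members and lists were chosen with earlier results of these data known. Some genes of these lists are counted but not reported by name here.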

Additional observations from a re-analysis of the deposited data

How the results depend on the processing

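Of 37 results for single Irx genes, those called and 4 that were not, 272 of 287 values under another filter, scaling, tool, threshold or set of libraries kept their direction and call, 14 lost the call and 1 reversed. The reversal was Irx5 in chondroblasts against the mean of the others, at 0.094 with library totals in place of TMM and -0.012 otherwise, a result that was not called. When single libraries were left out, 463 of 518 values kept direction and call, 49 lost the call, 1 gained it and 5 reversed; the reversed ones were Irx5 (-0.692 to 0.478) and Irx3 (-0.971 to 0.229) in chondroblasts. The cause was not tested.

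At an adjusted p of 0.05 with no fold limit, 6403 genes were called in S9-JAG1+ LMPs, 1706 in S9-Pαhi LMPs, 3226 in OCPs, 8902 in chondroblasts and 5831 in S9-SCA-1+ cells, against 1599, 581, 758, 1921 and 1703 at the limits used, and both limits changed at once. The count of called Irx genes in S9-Pαhi LMPs went from 1 to 0 under that threshold, with library totals, with DESeq2 and without S9-SCA-1+ libraries. In chondroblasts it went from 2 to 1 under that threshold, with a filter of 1 CPM in 2 libraries and without S9-SCA-1+ libraries. Leaving out single libraries gave 1 to 2 called Irx genes in S9-JAG1+ LMPs, 0 to 2 in S9-Pαhi LMPs, 3 to 5 in OCPs, 1 to 2 in chondroblasts, 0 to 4 in S9-SCA-1+ cells and 17 to 27 over the pairs. The counts over all genes were then 1451 to 1652, 483 to 656, 670 to 903, 1694 to 2069 and 1471 to 1739. For the pairs no count over all genes is given, here or with the replicate block.

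Replicate numbers did not pair the libraries: deviations of same-numbered libraries had a median correlation of -0.00475 over 26 pairs, and 5 of 14 libraries matched their own number best. With the replicate number as a block, 2, 1, 4, 2 and 3 Irx genes were called in S9-JAG1+, S9-Pαhi, OCP, chondroblast and S9-SCA-1+ cells and 21 over the pairs, and 1589, 573, 756, 1952 and 1739 genes in all. Depth limits Irx4 and Irx6, whose counts per library were at most 2 and 23.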
